A study of Mus musculus with 16 samples.

Results

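The genes that move sodium, chloride, bicarbonate, phosphate and their companion solutes across cell membranes were examined in colitis-associated colon tumors. They were all rows of the deposited count table whose symbol begins with Slc4a, Slc5a, Slc9a, Slc12a, Slc20a, Slc26a, Slc34a, Scnn1, Atp1a or Atp1b. This gave 68 of 19574 gene rows, which carry 67 symbols. The mice were given azoxymethane (AOM), a colon carcinogen, at 10 mg/kg, and then 3 cycles of 5 days of 3.5% dextran sodium sulfate (DSS), which injures the colon epithelium, with 16 days of recovery after each cycle. They were male and on a C57BL/6 background. Their age was 7 to 8 weeks before treatment, so they were older when tissue was taken. WT mice (n = 3) carried Foxp3 YFP-Cre, a Cre recombinase made from the Foxp3 locus in regulatory T (Treg) cells. Il23r ΔTreg mice (n = 5) carried the same Foxp3 YFP-Cre with Il23r fl/fl, so that the IL-23 receptor gene was deleted in Treg cells and not in the epithelium. From every mouse came 1 library of a tumor and 1 of adjacent normal colon, 16 in all. All groups had received AOM and DSS, and no untreated colon was compared. The comparisons asked how far transporter expression in tumors departs from adjacent normal colon in each genotype, and whether genotype changes it.

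The colon recovers salt and water from the luminal contents. Sodium enters surface cells through apical Na+/H+ exchangers and, in the distal colon, through the epithelial sodium channel, chloride enters in exchange for bicarbonate, and the Na,K-ATPase in the basolateral membrane expels the sodium and drives the whole process. Crypt cells secrete chloride that a basolateral Na-K-2Cl cotransporter has loaded into the cell. Short-chain fatty acids, vitamins, sugars and phosphate are carried inward together with sodium by members of the Slc5a, Slc20a and Slc34a families.

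Promoters of 4 members are shown because the results turn on these genes: Slc26a3 and Slc5a8 fell steeply in tumors, Slc26a9 rose steeply, and Slc9a3 rose in tumors of Il23r ΔTreg mice. Each line holds the 250 bases before the RefSeq transcription start (build GRCm38.p6, plus strand), and capitals mark matches on either strand to any motif searched.

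Slc26a3 promoter, chr12:31437969-31438218: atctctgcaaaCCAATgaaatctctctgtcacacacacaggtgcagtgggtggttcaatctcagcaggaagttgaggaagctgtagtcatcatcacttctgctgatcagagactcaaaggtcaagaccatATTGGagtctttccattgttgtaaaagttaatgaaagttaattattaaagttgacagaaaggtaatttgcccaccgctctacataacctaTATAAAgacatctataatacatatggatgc

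Slc5a8 promoter, chr10:88885742-88885991: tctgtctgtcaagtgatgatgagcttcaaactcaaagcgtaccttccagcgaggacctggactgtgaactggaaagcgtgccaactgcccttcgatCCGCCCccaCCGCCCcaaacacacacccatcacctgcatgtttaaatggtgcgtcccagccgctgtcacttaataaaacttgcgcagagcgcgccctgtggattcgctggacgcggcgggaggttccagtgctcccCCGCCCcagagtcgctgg

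Slc26a9 promoter, chr1:131743772-131744021: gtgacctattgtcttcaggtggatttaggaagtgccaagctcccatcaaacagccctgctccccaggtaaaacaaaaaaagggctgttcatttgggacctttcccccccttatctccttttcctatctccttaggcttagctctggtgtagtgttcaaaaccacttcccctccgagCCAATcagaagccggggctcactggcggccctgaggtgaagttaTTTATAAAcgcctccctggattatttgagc

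Slc9a3 promoter, chr13:74121163-74121412: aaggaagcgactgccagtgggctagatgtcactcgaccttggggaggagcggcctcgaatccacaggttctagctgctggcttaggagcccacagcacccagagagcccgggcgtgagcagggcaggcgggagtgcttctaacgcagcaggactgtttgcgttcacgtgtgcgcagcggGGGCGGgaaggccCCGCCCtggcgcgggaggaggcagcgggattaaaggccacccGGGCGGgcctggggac

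Slc26a3 and Slc26a9, the members with the lowest and the highest log2 fold change in Il23r ΔTreg tumors, both carry a TATA box (TATAAA) on the plus strand, from 30 to 25 bases before the start in Slc26a3 and from 28 to 23 in Slc26a9. In Slc26a9 a match on the minus strand, from 30 to 25 bases before the start, overlaps it. The Slc5a8 and Slc9a3 promoters carry no TATAAA and 3 GC boxes (GGGCGG) each. Their GC content was 58.8% and 67.6%, against 38.8% in Slc26a3 and 50% in Slc26a9. The RefSeq promoter table held 47 of the 67 member symbols. Among these, TATAAA was found in 11 (23.4%, against 14.3% of all 27025 genes in the table), CCAAT in 23 (48.9% against 37.5%) and GGGCGG in 24 (51.1% against 35.4%). The motif of CDX factors, which specify intestinal identity (TTTATNG), was found in 5 (10.6% against 11.3%), the AP-1 motif (TGANTCA) in 5 (10.6% against 7.82%), and the hexamer bound by steroid receptors (AGAACA) in 7 (14.9% against 18.2%). No member had the HNF4A motif (CAAAGTCCA, 0.451% of all genes), the TCF motif (CTTTGATC, 0.925%) or the full steroid receptor site (0.0444%). The median GC content was 60.8% in the windows of members and 52.4% in all windows, and its part in these shares was not tested. The shares are counts of letters in a window and do not show binding.

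Levels are given as CPM, counts scaled to library sizes that were adjusted by TMM, a method that aligns most genes between libraries. Values of the 3 WT mice are listed in the order mouse2988, mouse2989 and mouse2990, and those of the 5 Il23r ΔTreg mice in the order mouse2901, mouse2902, mouse2903, mouse2904 and mouse3883. Total counts ran from 34418067 to 60836474. The tumor of WT mouse2988 stood apart, with a TMM factor of 0.67 (0.819 to 1.18 in the other libraries) and 29.7% of its counts in the ribosomal RNA gene Rn18s (0.343% to 19.4% in the others). Il23r itself was between 0 and 0.284 CPM in all 16 libraries, and in whole tissue it does not check a deletion made in Treg cells. The 3 WT mice share a cage label that no Il23r ΔTreg mouse has, so cage and genotype cannot be told apart. The epithelial keratin and adhesion genes Epcam, Cdh1, Krt8, Krt18, Krt19, Vil1, Cldn7 and Cldn4 were present in every library, with summed levels of 8849.6 to 17734 CPM in tumors of WT and 9113 to 10364 CPM in tumors of Il23r ΔTreg mice, against 8956 to 14298 and 9093 to 15984 in adjacent normal tissue.

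Tumors had lower levels of many transporters than adjacent normal colon. Calls needed a change of more than 1 on the log2 scale, up or down, together with an adjusted p under 0.05. Of the 68 rows, 60 passed the filter on low counts and were tested. The 8 that did not, Atp1a4, Slc4a1, Slc4a10, Slc5a2, Slc5a4a, Slc5a4b, Slc5a10 and Slc12a1, had between 0 and 10 counts in any library. In WT mice 20 members were lower in tumors (33.3% of those tested, against 12.9% of all 17122 genes) and 5 were higher (8.33%, against 12.1% of all genes). In Il23r ΔTreg mice 18 were lower (30.0%, against 16.1%) and 10 were higher (16.7%, against 9.53%). The median log2 fold change of the members tested was -0.48 in WT and -0.37 in Il23r ΔTreg mice, against -0.01 and -0.00 over all genes. A total of 17 members were lower in both genotypes, 4 were higher in both, none was called in opposite directions, and 28 were called in neither. The share of all genes was not computed for these joint counts, so they are not read as particular to the members. Tumor and adjacent normal values did not overlap for 36 members in WT (60% of those tested, against 48.7% of all genes) and for 30 in Il23r ΔTreg mice (50%, against 37.2%).

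**Figure D1:**
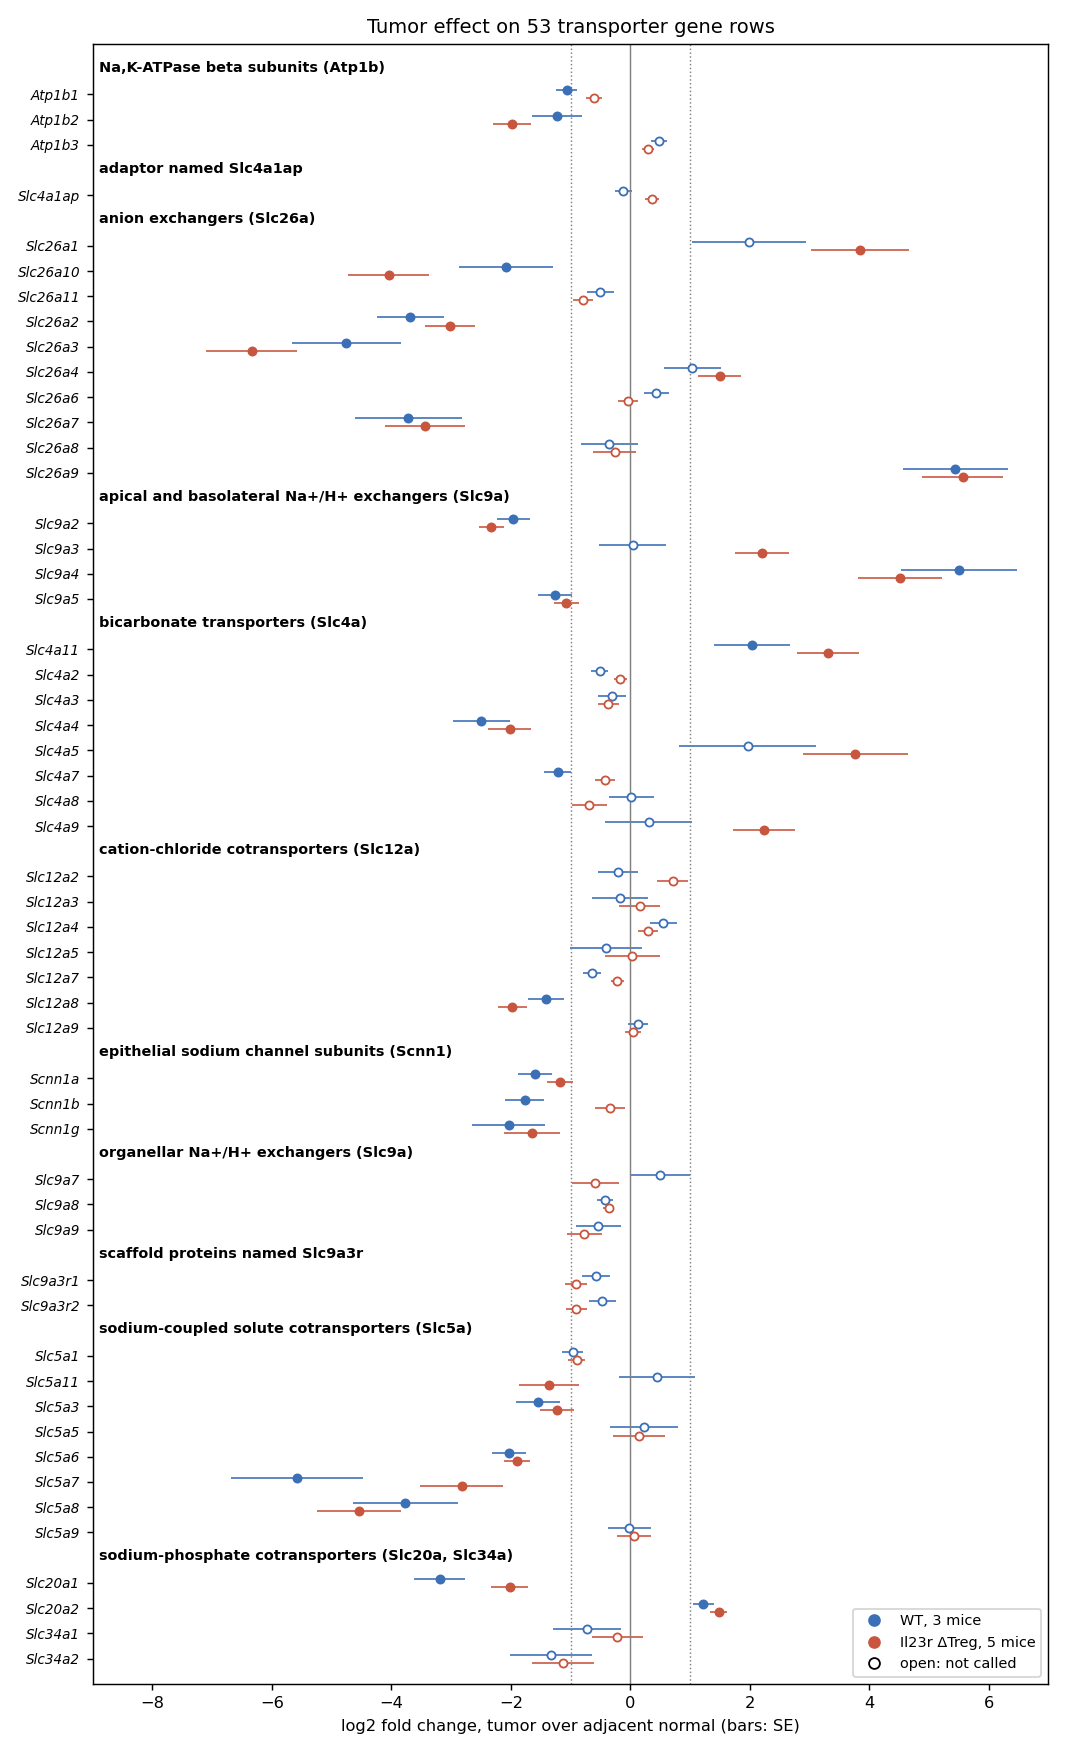
Tumor effect for 53 of the 60 members tested, grouped by role. The x axis is the log2 fold change of tumor over adjacent normal tissue with its SE, in WT mice (blue, n = 3) and Il23r ΔTreg mice (red, n = 5). Filled points were called, dotted lines mark the fold limit of 1, and the lowest value is -6.34 for Slc26a3 in Il23r ΔTreg mice and the highest 5.56 for Slc26a9 in the same mice.

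The non-epithelial makeup of the samples differed in the same comparisons. All 10 smooth muscle genes examined were lower in tumors of both genotypes. Their summed level in WT mice was 6675 to 8834 CPM beside the tumors and 623 to 899 within them, and 7404 to 11162 and 251 to 1702 in Il23r ΔTreg mice. The list of enteric neurons and glia held 10 genes, of which 10 fell in WT and 9 in Il23r ΔTreg tumors, with sums of 57.7 to 79.1 CPM against 6.56 to 11.1 and 52.7 to 74.9 against 6.23 to 17.2. Among 9 genes of surface colonocytes, the mature absorptive cells, 6 were lower in tumors of each genotype, and Aqp8, a water channel, had log2 fold changes of -4.56 ± 0.78 (SE) and -7.40 ± 0.70. Of 5 colon identity genes, 4 were lower in each, among them the transcription factor gene Cdx2 (log2 fold change -1.08 ± 0.40 (SE) in WT and -1.61 ± 0.32 in Il23r ΔTreg mice). The list of squamous epithelium summed to 23.3 to 91.4 CPM in WT tumors against 1.29 to 8.11 CPM beside them, and to 42.7 to 636 against 2.07 to 320.4 CPM in Il23r ΔTreg mice. Neutrophil genes were higher in tumors of both genotypes (5 of 5). Of 5 T cell genes, 4 were higher in WT tumors and 1 was lower in Il23r ΔTreg tumors, with sums of 49.4 to 67.6 CPM in WT tumors against 20.5 to 53.7 beside them and 9.73 to 23.2 against 24.3 to 64.2 in Il23r ΔTreg mice. None of 5 B and plasma cell genes was called in WT and all 5 were lower in Il23r ΔTreg tumors, with sums of 506 to 1340.2 against 578 to 1597 CPM and 63.7 to 594 against 633 to 3175. The part of these cell types in the transporter results was not tested. In whole tissue, fewer cells of a type and less RNA per cell cannot be told apart.

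**Figure D2:**
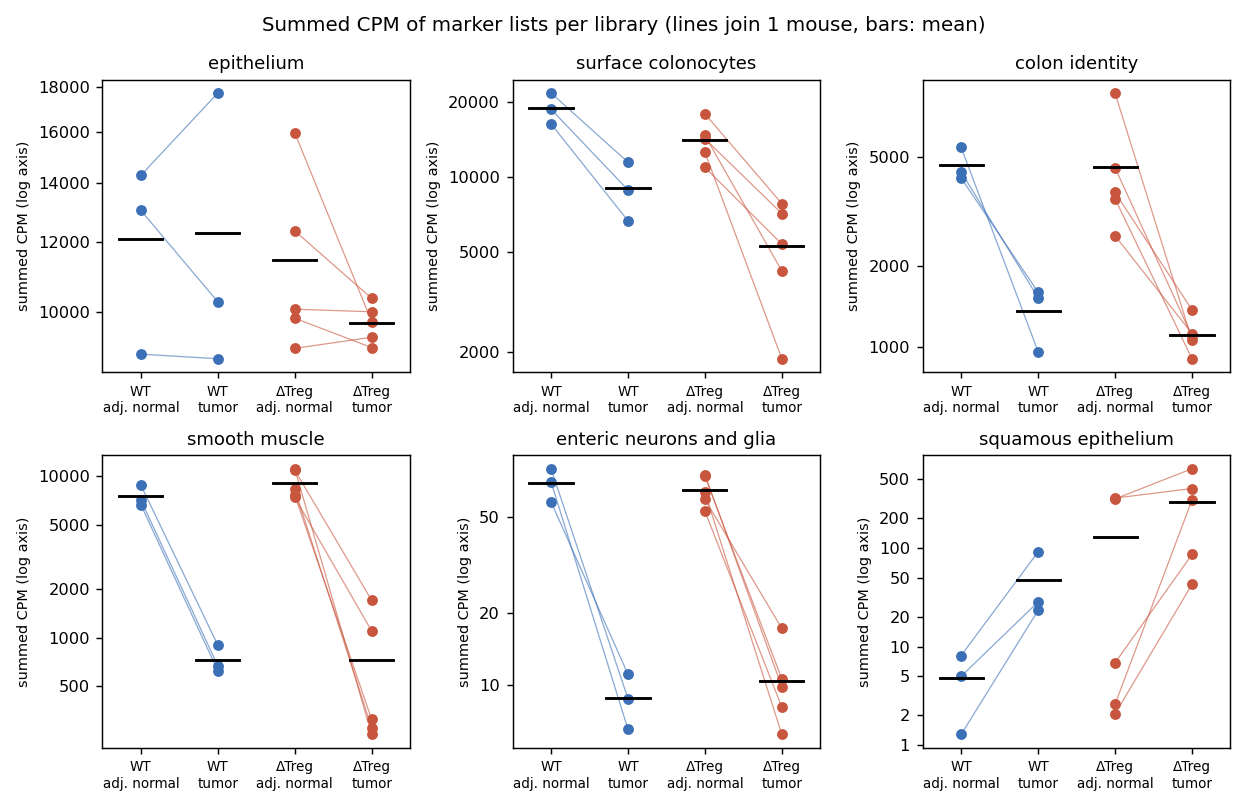
Summed CPM of 6 marker lists in each library, on log axes. Lines join the libraries of 1 mouse, and black bars are group means. The smooth muscle sum fell in all 8 mice and that of enteric neurons and glia in all 8, while the epithelium sum overlapped between tumors and adjacent normal tissue in both genotypes.

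Among anion exchangers, the apical chloride and bicarbonate exchanger of colonocytes was far lower in tumors. Slc26a3, mutated in human congenital chloride diarrhea, was 919, 662 and 1247 CPM in WT adjacent normal tissue and 11.7, 65.3 and 27.6 in the tumors of the same mice. The 5 Il23r ΔTreg mice had 234, 378, 507, 647 and 409.6 CPM in adjacent normal tissue and 0.562, 4.88, 6.99, 13 and 1.52 in tumors. Every tumor was below every adjacent normal library. It was lower in WT tumors (log2 fold change -4.75 ± 0.91 (SE), adjusted p = 0.00104) and in Il23r ΔTreg tumors (log2 fold change -6.34 ± 0.76 (SE), adjusted p = 1.14e-05). The lowest tumor values, 0.562 and 1.52 CPM, were those of mouse2901 and mouse3883, and all 3 WT tumors were at or above 11.7 CPM while 1 of 5 Il23r ΔTreg tumors, that of mouse2904 at 13.0 CPM, exceeded this. Slc26a3 was lower on average in Il23r ΔTreg than in WT tumors (log2 fold change -2.70 ± 0.70 (SE), adjusted p = 0.0568), which did not pass the threshold. Of 19 alternative fits, 3 called this difference. Over the 19 the log2 fold change ran from -3.32 to -1.87, and the adjusted p of each fit was at most 0.168. The 3 were DESeq2, the fit without mouse2904 (-3.32, adjusted p = 0.0341) and limma voom with mouse as a block (-3.32, adjusted p = 0.0285). In adjacent normal tissue Slc26a3 was also lower in Il23r ΔTreg mice on average, with no overlap between the genotypes, and not past the test (log2 fold change -1.12 ± 0.68 (SE), adjusted p = 0.964). Surface colonocyte genes showed the same order in tumors, with sums of 6684 to 11476 CPM in WT and 1871 to 7830.3 in Il23r ΔTreg mice, and their part in it was not tested.

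Slc26a2, a sulfate transporter, showed a similar fall. It was 896, 1025 and 2247 CPM in WT adjacent normal tissue and 38.5, 189.9 and 96.3 in WT tumors (log2 fold change -3.68 ± 0.55 (SE), adjusted p = 0.000196). Adjacent normal tissue of Il23r ΔTreg mice had 326, 726, 662, 722 and 537 CPM and their tumors 46.7, 74.2, 117, 78.6 and 52.1 (log2 fold change -3.01 ± 0.42 (SE), adjusted p = 3.63e-05). The 3 WT adjacent normal values lay above all 5 Il23r ΔTreg ones, without passing the test (log2 fold change -1.22 ± 0.44 (SE), adjusted p = 0.964). Per kilobase of exon, Slc26a3 was the more abundant of both in WT adjacent normal tissue, at a mean of 148 against 112 CPM per kb, and the less abundant in Il23r ΔTreg tumors, at 0.846 against 5.95. The order in WT adjacent normal tissue rests on the merged exon lengths used, since mean CPM there was 943 for Slc26a3 and 1389 for Slc26a2. Slc26a6, another exchanger of chloride, bicarbonate and oxalate, ranged from 4.44 to 4.76 CPM in WT tumors and from 3.08 to 4.07 beside them, and was called neither in WT (log2 fold change 0.44 ± 0.21 (SE), adjusted p = 0.111) nor in Il23r ΔTreg mice (log2 fold change -0.04 ± 0.16 (SE), adjusted p = 0.864).

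Slc26a9, a chloride transporter best known from stomach and airway epithelium, went the other way. It was 0.0808, 0.18 and 0.117 CPM in WT adjacent normal tissue, which stands for 3, 8 and 6 counts, and 3.71, 8.24 and 4.91 CPM in WT tumors. Its values in Il23r ΔTreg mice were 0.496, 0, 0.101, 0.0207 and 0.101 CPM in adjacent normal tissue and 6.26, 7.11, 9.79, 4.7 and 5.87 in tumors. All 8 tumors were above 3.5 CPM and all 8 adjacent normal libraries below 0.5 CPM. The log2 fold change was 5.44 ± 0.89 (SE) in WT (adjusted p = 0.00034) and 5.56 ± 0.68 in Il23r ΔTreg mice (adjusted p = 1.27e-05). A pair of members with low counts fell: Slc26a7, an anion transporter of stomach and kidney, from a mean of 0.804 ± 0.154 CPM (SD) to 0.0475 ± 0.0587 in WT and from 0.643 ± 0.171 to 0.0588 ± 0.0825 in Il23r ΔTreg mice, and Slc26a10, from 1.11 ± 0.213 to 0.242 ± 0.214 and from 1.42 ± 0.421 to 0.0886 ± 0.111. Their log2 fold changes were -3.72 ± 0.89 and -3.44 ± 0.67 (SE) for Slc26a7 and -2.09 ± 0.78 and -4.05 ± 0.68 for Slc26a10. The WT call of Slc26a7 was lost without mouse2990 (adjusted p = 0.0507), and that of Slc26a10 (adjusted p = 0.0457) was lost without any 1 of the 3 WT mice (0.137 without mouse2988, 0.0553 without mouse2989 and 0.154 without mouse2990), without the tumor of mouse2988 alone (0.109), and without Il23r ΔTreg mouse2901, mouse2902, mouse2903 or mouse3883 (0.0526 to 0.0623). Chosen after their values were seen, Slc26a1, a sulfate and oxalate exchanger, and Slc26a4, pendrin, were higher in Il23r ΔTreg tumors only by the calls made (log2 fold change 3.85 ± 0.82 and 1.49 ± 0.36, SE), at means of 0.413 ± 0.224 and 2.72 ± 0.966 CPM. Their WT effects were 1.99 ± 0.95 and 1.04 ± 0.48, and the interaction was not called for either (adjusted p = 0.454 and 0.695). Slc26a8 and Slc26a11 were called in no comparison.

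**Figure D3:**
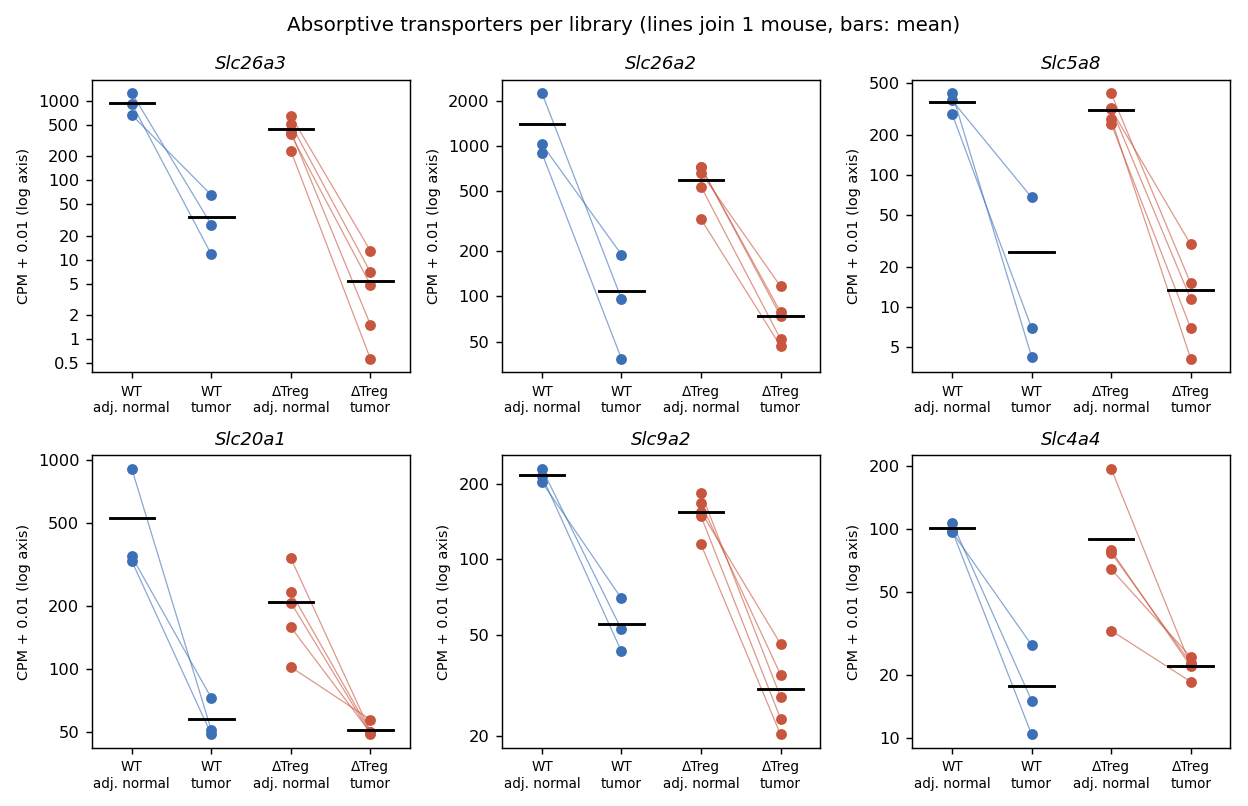
CPM plus 0.01 on log axes for Slc26a3, Slc26a2, Slc5a8, Slc20a1, Slc9a2 and Slc4a4 in each library. Lines join the libraries of 1 mouse and black bars are group means. Every line falls from adjacent normal tissue to tumor in all 6 panels, most steeply for Slc26a3 in Il23r ΔTreg mice.

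The apical Na+/H+ exchangers did not move together. Slc9a2 was 214, 203 and 229 CPM in WT adjacent normal tissue and 43.1, 70.0 and 52.8 in WT tumors. Among Il23r ΔTreg mice, Slc9a2 was 115, 167, 155, 184 and 148 CPM in adjacent normal tissue and 20.2, 34.9, 46.2, 28.5 and 23.4 in tumors. With no overlap between the tissues, it fell in WT (log2 fold change -1.96 ± 0.27 (SE), adjusted p = 0.000117) and in Il23r ΔTreg mice (log2 fold change -2.33 ± 0.21 (SE), adjusted p = 1.34e-06). Slc9a3, the main exchanger of sodium absorption in the gut, was 41.5, 68.8 and 235 CPM in WT adjacent normal tissue and 74.4, 100.1 and 179.8 in WT tumors, which overlapped and were not called (log2 fold change 0.04 ± 0.56 (SE), adjusted p = 0.963). Il23r ΔTreg adjacent normal tissue held 37.9, 36.1, 32.6, 28.6 and 43.9 CPM, and tumors held 106, 198, 314, 125 and 80.6, where it was higher in all 5 mice (log2 fold change 2.20 ± 0.45 (SE), adjusted p = 0.000908). The WT values differed by mouse, with both libraries of mouse2990 the highest of their groups. The difference between the tumor effects was 2.16 ± 0.71 (SE) on the log2 scale and did not pass the test (adjusted p = 0.228). In tumors the means were 118 ± 54.9 (SD) in WT and 165 ± 94.1 CPM in Il23r ΔTreg mice (log2 fold change 0.48 ± 0.51 (SE), adjusted p = 0.575), and in adjacent normal tissue the means were 115 ± 104 and 35.8 ± 5.73 CPM (log2 fold change -1.68 ± 0.49 (SE), adjusted p = 0.964).

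Slc9a4, an exchanger of the basolateral membrane of gastric parietal cells, rose from near the limit of detection. It was 0.539, 0.405 and 0.195 CPM in WT adjacent normal tissue and 14.8, 15.9 and 20.4 in WT tumors (log2 fold change 5.50 ± 0.97 (SE), adjusted p = 0.000594). In Il23r ΔTreg mice it was 0.151, 0.206, 2.88, 0.103 and 0.69 CPM in adjacent normal tissue and 19.3, 21.4, 19.7, 15.8 and 16 in tumors (log2 fold change 4.51 ± 0.70 (SE), adjusted p = 9.94e-05). The 8 tumor values spanned only 14.8 to 21.4 CPM and lay above every adjacent normal value. Slc9a5 fell in both genotypes (-1.26 ± 0.28 and -1.07 ± 0.22), from 6.59 ± 1.49 to 2.74 ± 0.786 CPM in WT and from 6.6 ± 0.642 to 3.15 ± 0.859 in Il23r ΔTreg mice. Without WT mouse2990 its WT effect was -0.98 (adjusted p = 0.0552), and without mouse2902 its Il23r ΔTreg effect was -0.96 (adjusted p = 0.00427), under the fold limit. Of the organellar exchangers, Slc9a7, Slc9a8 and Slc9a9 were not called, and Slc9a8 had log2 fold changes of -0.42 ± 0.13 (SE) in WT and -0.37 ± 0.10 in Il23r ΔTreg mice.

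Transcripts of proteins that hold these exchangers at the membrane were measured with them. Slc9a3r1 and Slc9a3r2, which encode the scaffolds NHERF1 and NHERF2 and are not transporters themselves, were lower in Il23r ΔTreg tumors with adjusted p-values of 0.000625 and 0.000606 but log2 fold changes of -0.91 ± 0.18 and -0.91 ± 0.18, short of the limit of 1. Without mouse2903 both were called, at -1.03 and -1.05. Their WT effects were -0.58 ± 0.23 (adjusted p = 0.0559) and -0.47 ± 0.23 (adjusted p = 0.112). Of 4 further partners, Shank2 and Pdzd3 were lower in both genotypes (log2 fold change -1.78 ± 0.31 and -1.71 ± 0.44 in WT, -1.04 ± 0.23 and -1.72 ± 0.34 in Il23r ΔTreg mice, SE), Pdzk1 was higher in both from a mean of 0.327 ± 0.172 CPM (SD) in WT adjacent normal tissue to 1.18 ± 0.547 in WT tumors, and the membrane linker gene Ezr was not called. The median of these 4 was -1.18 in WT and -0.66 in Il23r ΔTreg mice. Over all genes, 12.1% were called higher and 12.9% lower in WT, and 9.53% and 16.1% in Il23r ΔTreg mice.

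**Figure D4:**
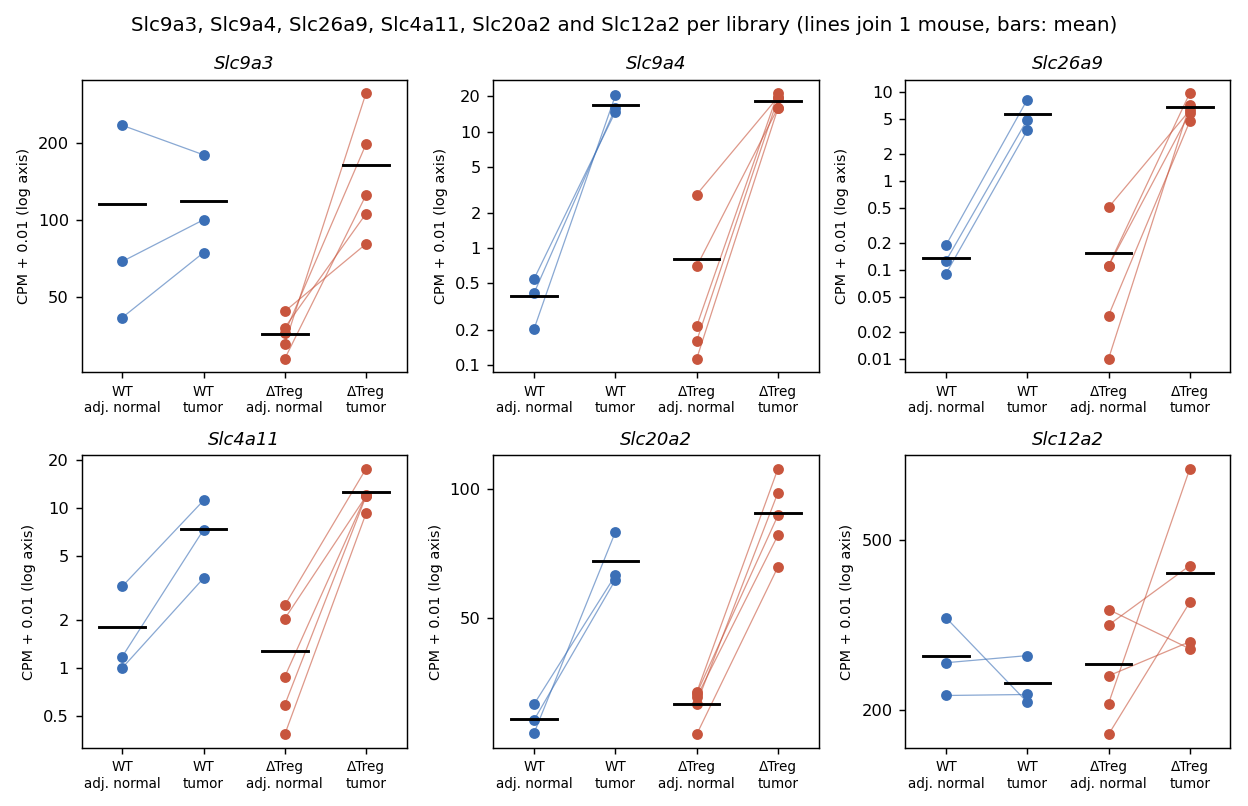
CPM plus 0.01 on log axes for Slc9a3, Slc9a4, Slc26a9, Slc4a11, Slc20a2 and Slc12a2 in each library. Lines join the libraries of 1 mouse and black bars are group means. Tumor and adjacent normal values are apart in both genotypes for Slc9a4, Slc26a9, Slc4a11 and Slc20a2, while Slc9a3 rises in all 5 Il23r ΔTreg mice and in 2 of 3 WT mice, and Slc12a2 overlaps.

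Bicarbonate transporters split by member. Slc4a4, the electrogenic sodium bicarbonate cotransporter of the basolateral membrane, was 98.5, 97 and 107 CPM in WT adjacent normal tissue and 10.4, 27.9 and 15.2 in WT tumors (log2 fold change -2.49 ± 0.48 (SE), adjusted p = 0.00105). Adjacent normal tissue of Il23r ΔTreg mice had 32.8, 64.3, 194, 77.2 and 79.1 CPM and their tumors 18.7, 24.5, 22.3, 22.9 and 22.1 (log2 fold change -2.02 ± 0.36 (SE), adjusted p = 0.000336). The groups did not overlap in either genotype, and the 5 Il23r ΔTreg tumors lay within 18.7 and 24.5 CPM. Slc4a7, an electroneutral sodium bicarbonate cotransporter, was 107, 88.2 and 136 CPM in WT adjacent normal tissue and 38.5, 55.5 and 48.4 in WT tumors, where it fell (log2 fold change -1.22 ± 0.23 (SE), adjusted p = 0.000816). Its Il23r ΔTreg values overlapped between tissues and were not called (log2 fold change -0.43 ± 0.17 (SE), adjusted p = 0.0533), and the interaction was not called either (0.79 ± 0.28, adjusted p = 0.255). Slc4a2, a basolateral anion exchanger, stayed under the fold limit in both genotypes (-0.51 ± 0.14 and -0.17 ± 0.11, SE).

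Slc4a11, known from the corneal endothelium and mutated in human corneal dystrophy, rose. It was 3.23, 0.99 and 1.17 CPM in WT adjacent normal tissue and 11.2, 3.64 and 7.32 in WT tumors (log2 fold change 2.04 ± 0.64 (SE), adjusted p = 0.0195). Its values in Il23r ΔTreg mice were 2.03, 0.374, 0.872, 0.578 and 2.46 CPM in adjacent normal tissue and 11.9, 9.28, 12, 11.9 and 17.7 in tumors (log2 fold change 3.31 ± 0.51 (SE), adjusted p = 9.57e-05). The tumors were all above the adjacent normal libraries of their genotype. The WT call was lost without mouse2990 (adjusted p = 0.121) or without the tumor of mouse2988 (adjusted p = 0.0781). Slc4a5 and Slc4a9, both at low levels, were called only in Il23r ΔTreg mice, with tumor means of 1.49 ± 1.31 and 0.652 ± 0.278 CPM (SD) against 0.109 ± 0.0811 and 0.136 ± 0.106 in adjacent normal tissue. Slc4a5 was 0.112, 1.58, 3.62, 1.05 and 1.08 CPM in the 5 tumors, so that the tumor of mouse2901 lay within the adjacent normal range. The log2 fold changes were 3.76 ± 0.88 (SE) for Slc4a5 and 2.23 ± 0.52 for Slc4a9, against 1.97 ± 1.15 and 0.31 ± 0.73 in WT, and the interaction was called for neither (adjusted p = 0.52 and 0.358). Slc4a3, Slc4a8 and the nuclear adaptor gene Slc4a1ap, which is a member by its name alone, were not called.

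The beta subunits of the sodium pump, which bring the pump to the membrane, did not move together. Atp1b1, the usual beta subunit of epithelia, was 1280.0, 1444 and 1326 CPM in WT adjacent normal tissue and 538, 807 and 589 in WT tumors (log2 fold change -1.07 ± 0.18 (SE), adjusted p = 0.000414). Il23r ΔTreg adjacent normal tissue held 894, 1145, 1091, 1172 and 1272 CPM, and tumors held 715, 736, 778, 756 and 661 (log2 fold change -0.61 ± 0.14 (SE), adjusted p = 0.00186), a smaller difference that stayed under the fold limit although the groups did not overlap. The WT effect fell to -0.91 without the tumor of mouse2988 and to -0.98 with library sizes alone, both under the limit. Atp1b3 was not called, with log2 fold changes of 0.48 ± 0.13 (SE, adjusted p = 0.00874) in WT and 0.30 ± 0.10 (adjusted p = 0.0233) in Il23r ΔTreg mice, both above 0. Per kilobase, Atp1b1 stood at 438 and Atp1b3 at 23.1 CPM per kb in WT adjacent normal tissue and at 209 and 32.3 in WT tumors. Atp1b2, a beta subunit of glia, fell from 5.83 ± 2.02 to 2.47 ± 0.693 CPM (SD) in WT (log2 fold change -1.23 ± 0.41 (SE), adjusted p = 0.0278) and from 7.11 ± 2.74 to 1.8 ± 0.675 in Il23r ΔTreg mice (log2 fold change -1.98 ± 0.32 (SE), adjusted p = 0.00015). The WT call was lost without mouse2988 (adjusted p = 0.26), mouse2989 (0.0603) or the tumor of mouse2988 alone (0.122), and with mouse as a block (0.0808). Enteric neuron and glia markers fell in the same tumors, and their part was not tested.

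The 7 FXYD genes encode small regulators of the pump. In WT tumors 2 of them rose and 2 fell, and in Il23r ΔTreg tumors 2 rose and 3 fell. Among all genes, 12.1% were called higher and 12.9% lower in WT, and 9.53% and 16.1% in Il23r ΔTreg mice. Fxyd3 rose from a mean of 33.3 ± 11.9 CPM (SD) to 136 ± 96.2 in WT and from 35.5 ± 7.34 to 98.2 ± 15.6 in Il23r ΔTreg mice (log2 fold change 2.03 ± 0.39 and 1.47 ± 0.30, SE). Fxyd1, abundant in muscle, fell in both (-1.60 ± 0.52 and -2.94 ± 0.42), as did Fxyd7 (-3.98 ± 0.93 and -3.61 ± 0.71). Fxyd5 was called higher in WT tumors (1.33 ± 0.34) and had 0.05 ± 0.26 in Il23r ΔTreg mice. Fxyd6 was called higher and Fxyd2 lower in Il23r ΔTreg tumors (1.20 ± 0.25 and -1.81 ± 0.33). The median over the 7 was -0.57 in WT and 0.05 in Il23r ΔTreg mice.

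All 3 subunits of the epithelial sodium channel were called lower in WT tumors, and 2 of 3 in Il23r ΔTreg tumors. The shares of all genes called lower were 12.9% and 16.1%. Scnn1a, the alpha subunit, was 156, 145 and 141 CPM in WT adjacent normal tissue and 41, 71.8 and 34 in WT tumors (log2 fold change -1.59 ± 0.28 (SE), adjusted p = 0.00064). In Il23r ΔTreg mice it was 103, 123, 81.4, 110.2 and 136 CPM in adjacent normal tissue and 30.9, 64.3, 56.4, 50.5 and 43.2 in tumors (log2 fold change -1.17 ± 0.22 (SE), adjusted p = 0.000423). Scnn1g, the gamma subunit, was 27.6, 4.95 and 11.5 CPM in WT adjacent normal tissue and 4.53, 3.57 and 2.64 in WT tumors (log2 fold change -2.04 ± 0.61 (SE), adjusted p = 0.0158). The WT range was wide, and the WT call was lost without mouse2988 (adjusted p = 0.13) or mouse2990 (0.0786). In Il23r ΔTreg mice Scnn1g was 2.95, 8.5, 3.02, 10.5 and 14.8 CPM in adjacent normal tissue and 2.23, 2.61, 2.08, 2.91 and 2.94 in tumors (log2 fold change -1.64 ± 0.47 (SE), adjusted p = 0.00921).

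Scnn1b, the beta subunit, fell in WT tumors and was not called in Il23r ΔTreg tumors. It was 20.5, 16.7 and 11.9 CPM in WT adjacent normal tissue and 4.92, 5.24 and 4.23 in WT tumors, a fall with no overlap (log2 fold change -1.77 ± 0.33 (SE), adjusted p = 0.00083). Its values in Il23r ΔTreg mice were 6.4, 16.2, 8.94, 13.3 and 17.9 CPM in adjacent normal tissue and 7.85, 10.6, 8.62, 11.1 and 11.3 in tumors, which overlapped (log2 fold change -0.34 ± 0.25 (SE), adjusted p = 0.273). All 5 Il23r ΔTreg tumors were above all 3 WT tumors. The direct comparison of tumors gave log2 fold change 1.04 ± 0.30 (SE), adjusted p = 0.0787, and the interaction gave log2 fold change 1.43 ± 0.41 (SE), adjusted p = 0.177. Neither passed the threshold in edgeR with all libraries in 1 fit. Of 19 alternative fits, 3 called the tumor comparison, and the adjusted p of each fit was at most 0.225. Without mouse2901 it gave 1.12 with an adjusted p of 0.0384, and with only the 2 tumor groups in the fit 1.00 with 0.0276. DESeq2 gave 1.02 with 0.021, and for the interaction an adjusted p of 0.0486, the only call of the interaction among 18 alternatives. Per kilobase of exon, Scnn1a was the most abundant subunit in all 4 groups, with means of 35.7, 11.8, 26.8 and 11.9 CPM per kb in WT adjacent normal tissue, WT tumors, Il23r ΔTreg adjacent normal tissue and Il23r ΔTreg tumors. Scnn1b stood at 6.22, 1.82, 4.76 and 3.76, and Scnn1g at 4.91, 1.2, 2.66 and 0.854. The distal colon genes Hoxa13, Hoxb13 and Hoxd13 were not called in any comparison, and Hoxd12 was higher in Il23r ΔTreg tumors (2.30 ± 0.59, SE).

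**Figure D5:**
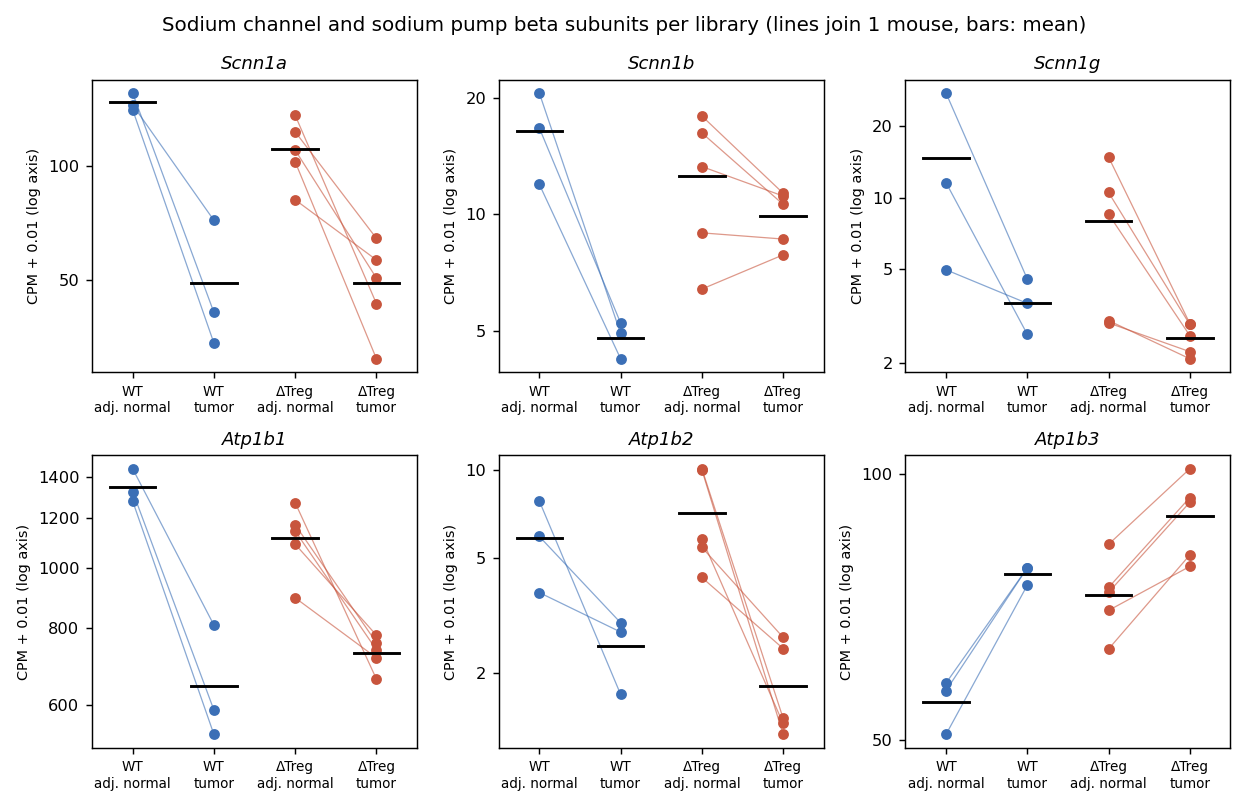
CPM plus 0.01 on log axes for the sodium channel subunits Scnn1a, Scnn1b and Scnn1g and the sodium pump beta subunits Atp1b1, Atp1b2 and Atp1b3 in each library. Lines join the libraries of 1 mouse and black bars are group means. Scnn1b falls in all 3 WT mice, to 5.24 CPM or less, while the 5 Il23r ΔTreg tumors lie between 7.85 and 11.3 CPM.

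Genes of the pathway through which aldosterone raises sodium absorption were lower in part. They were counted whichever way their products act on the channel, so the counts do not show the activity of the pathway. Of 8 genes listed, 4 fell in tumors of WT mice and 3 in those of Il23r ΔTreg mice, and none was higher. Among all genes, 12.9% were called lower in WT and 16.1% in Il23r ΔTreg tumors. Nr3c2, the mineralocorticoid receptor, fell from 192 ± 38.5 to 38.3 ± 17.3 CPM (SD) in WT and from 119 ± 25.4 to 31.9 ± 7.33 in Il23r ΔTreg mice (log2 fold change -2.32 ± 0.31 and -1.91 ± 0.24, SE). Hsd11b2, the enzyme that shields this receptor from glucocorticoids, fell further, from 257 ± 69.8 to 17 ± 20.3 CPM and from 239 ± 85.4 to 18 ± 7.52 (-3.90 ± 0.71 and -3.73 ± 0.54). Sgk1 and Nedd4l, a kinase and a ubiquitin ligase that set the number of channels at the membrane, were called lower in WT only (-1.11 ± 0.40 and -1.44 ± 0.15, against 0.12 ± 0.31 and -0.96 ± 0.12 in Il23r ΔTreg mice), and the interaction was called for neither. Tsc22d3, a steroid-induced gene, was called lower in Il23r ΔTreg tumors only (-1.03 ± 0.25). Prss8 and St14, proteases that activate the channel, were not called. The median of the list was -1.02 in WT and -0.89 in Il23r ΔTreg mice.

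Sodium-coupled solute cotransporters were lower or not called, and none was higher. Slc5a8, which carries butyrate and other monocarboxylates into colonocytes, was 292, 369 and 419.8 CPM in WT adjacent normal tissue and 6.9, 67.7 and 4.17 in WT tumors (log2 fold change -3.77 ± 0.88 (SE), adjusted p = 0.00366). Among Il23r ΔTreg mice, Slc5a8 was 268, 322, 418, 317 and 246 CPM in adjacent normal tissue and 4.03, 11.4, 15.1, 29.8 and 6.88 in tumors (log2 fold change -4.55 ± 0.71 (SE), adjusted p = 9.42e-05). All 8 tumors were below all 8 adjacent normal libraries, and the tumor of WT mouse2989 was the highest tumor value for Slc5a8, Slc26a3 and Slc26a2 alike. Slc5a6, the transporter of biotin, pantothenate and lipoate, was 33.8, 45.6 and 35.1 CPM in WT adjacent normal tissue and 8.06, 11.8 and 8.02 in WT tumors (log2 fold change -2.03 ± 0.29 (SE), adjusted p = 0.000123). Il23r ΔTreg adjacent normal tissue held 23.7, 55.2, 31.7, 50.8 and 31.2 CPM, and tumors held 8.96, 10.3, 10.7, 12.5 and 9.48 (log2 fold change -1.89 ± 0.22 (SE), adjusted p = 8.22e-06). Slc5a1, the intestinal glucose and galactose cotransporter, was lower in the tumors of all 8 mice at adjusted p-values of 0.0009 and 0.0001, but its log2 fold changes of -0.97 ± 0.18 and -0.90 ± 0.14 (SE) stayed just under the limit in both genotypes. Without WT mouse2989 the WT effect was -1.08 and was called.

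Slc5a3, a myo-inositol cotransporter, fell from a range of 40.7 to 59.3 to one of 10.1 to 26 CPM in WT (log2 fold change -1.55 ± 0.37 (SE), adjusted p = 0.00442) and from 31.2 to 80.6 to 14.5 to 27.4 in Il23r ΔTreg mice (log2 fold change -1.23 ± 0.28 (SE), adjusted p = 0.00231). Its WT call was lost without mouse2990 (adjusted p = 0.0592), and without mouse2904 its Il23r ΔTreg effect was -0.94. Slc5a7, the choline transporter of cholinergic neurons, was 0.862, 1.58 and 2.43 CPM in WT adjacent normal tissue and 0, 0.0485 and 0.0294 in WT tumors, the latter standing for 0, 3 and 1 counts (log2 fold change -5.57 ± 1.10 (SE), adjusted p = 0.00129). The 5 Il23r ΔTreg mice had 1.25, 0.374, 0.832, 0.64 and 2.1 CPM in adjacent normal tissue and 0.154, 0.0762, 0, 0.381 and 0.134 in tumors (log2 fold change -2.82 ± 0.69 (SE), adjusted p = 0.00347). The neuron and glia markers fell beside it, and their part was not tested. Slc5a11, at means below 0.4 CPM in every group, was called lower in Il23r ΔTreg tumors (log2 fold change -1.36 ± 0.50 (SE), adjusted p = 0.0359). That call was lost without mouse2901 (adjusted p = 0.0715), mouse2902 (0.0992), mouse2904 (0.121), mouse3883 (0.158) or WT mouse2989 (0.0557), and with mouse as a block (0.0939). Slc5a5 and Slc5a9 were not called.

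The widely expressed phosphate cotransporters Slc20a1 and Slc20a2 moved in opposite directions. Slc20a1 was 329, 346 and 906 CPM in WT adjacent normal tissue and 48.9, 73 and 51.1 in WT tumors (log2 fold change -3.19 ± 0.42 (SE), adjusted p = 8.76e-05). Adjacent normal tissue of Il23r ΔTreg mice had 103, 234, 208, 339 and 159 CPM and their tumors 57.5, 50.3, 49.2, 50.4 and 49.8 (log2 fold change -2.02 ± 0.31 (SE), adjusted p = 9.42e-05). The adjacent normal values were spread widely while 7 of 8 tumors lay between 48.9 and 57.5 CPM. Slc20a2 was 29, 31.6 and 27 CPM in WT adjacent normal tissue and 61.5, 63 and 79.6 in WT tumors (log2 fold change 1.22 ± 0.18 (SE), adjusted p = 0.000151). In Il23r ΔTreg mice it was 26.8, 33.6, 31.6, 32.7 and 33.4 CPM in adjacent normal tissue and 65.9, 112, 98.3, 78.2 and 86.9 in tumors (log2 fold change 1.48 ± 0.14 (SE), adjusted p = 1.43e-06). Slc20a2 was higher and Slc20a1 lower in the tumor of each of the 8 mice. Slc34a2, the intestinal and lung phosphate cotransporter, ranged from 3.97 to 38 CPM in Il23r ΔTreg adjacent normal tissue and was not called (-1.32 ± 0.68 and -1.13 ± 0.53, SE), nor was the renal form Slc34a1.

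Cation-chloride cotransporters had the fewest calls among the families of more than 4 tested members, with 1 of 9 called lower in each genotype. This was 11.1%, near the share of all genes called lower (12.9% in WT and 16.1% in Il23r ΔTreg mice). Slc12a2, the basolateral cotransporter that feeds chloride secretion, was 216, 257 and 328 CPM in WT adjacent normal tissue and 217, 268 and 208 in WT tumors, which overlapped (log2 fold change -0.21 ± 0.33 (SE), adjusted p = 0.639). Among Il23r ΔTreg mice, Slc12a2 was 207, 239.8, 343, 175 and 316 CPM in adjacent normal tissue and 734, 288, 278, 357 and 435 in tumors, which also overlapped (log2 fold change 0.71 ± 0.26 (SE), adjusted p = 0.0349). The tumor of mouse2901 was the highest of all libraries, and all 5 Il23r ΔTreg tumors were above the 3 WT tumors, without passing the test (log2 fold change 0.86 ± 0.31 (SE), adjusted p = 0.15). The called member was Slc12a8, which fell from 40.4 ± 9.71 to 15.2 ± 3.63 CPM (SD) in WT (log2 fold change -1.41 ± 0.30 (SE), adjusted p = 0.00215) and from 50.1 ± 11.9 to 12.7 ± 4.01 in Il23r ΔTreg mice (log2 fold change -1.98 ± 0.24 (SE), adjusted p = 1.1e-05). Slc12a7, a potassium chloride cotransporter, had -0.64 ± 0.15 (adjusted p = 0.00319) in WT and -0.21 ± 0.11 (adjusted p = 0.133) in Il23r ΔTreg mice. Slc12a3, Slc12a4, Slc12a5 and Slc12a9 were not called.

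Genes of the kinases that control these cotransporters were examined too. Of 7 WNK and SPAK pathway genes, Wnk3 was higher in both genotypes from means of 0.302 ± 0.0674 and 0.327 ± 0.0696 CPM (SD) to 1.32 ± 0.515 and 2.07 ± 0.653 (log2 fold change 2.13 ± 0.41 and 2.65 ± 0.32, SE), and Wnk4 was lower in WT (-1.81 ± 0.19). The other 5 were not called, and the list medians were -0.55 and 0.01. Over all genes, 12.1% were called higher and 12.9% lower in WT, and 9.53% and 16.1% in Il23r ΔTreg mice. Among 9 genes of chloride and potassium channels and pumps, 5 were lower in WT and 4 in Il23r ΔTreg tumors (against 12.9% and 16.1% of all genes). None was higher, and the medians were -1.59 and -0.81. Cftr, the chloride channel of cystic fibrosis, fell from 123 ± 65.1 to 12.7 ± 7.83 CPM (SD) in WT and from 87.4 ± 27.5 to 19.1 ± 8.71 in Il23r ΔTreg mice (-3.26 ± 0.52 and -2.19 ± 0.39, SE). Best2, a bicarbonate-permeable channel of goblet cells, Clcn2, a chloride channel, and Kcnma1, a potassium channel also found in smooth muscle, were lower in both. Ano1, a calcium-activated chloride channel, was called lower in WT only (-1.71 ± 0.25, against -0.78 ± 0.19 in Il23r ΔTreg mice). Kcnq1, Kcne3, Kcnn4 and Atp12a were not called.

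Between genotypes no member was called. In tumors 0 of 60 were higher and 0 lower in Il23r ΔTreg mice, against 0.146% and 1.58% of all genes, and 15 of the 60 had an unadjusted p under 0.05 in edgeR (25%, against 20.4% of all genes). DESeq2 called 1 higher, Scnn1b (1.67% of members, against 0.607% of all genes), and 1 lower, Slc26a3 (1.67% against 3.71%; log2 fold change -2.71, adjusted p = 0.00286). The median log2 fold change of the 60 members was 0.12, against 0.01 over all genes. In adjacent normal tissue 0 were called, against 0.00584% of all genes higher and 0% lower, with 4 at an unadjusted p under 0.05 (6.67%, against 4.16% of all genes) and 0 by DESeq2 (against 0.0409% of all genes higher and 0.00584% lower). For the interaction, the tumor effect in Il23r ΔTreg mice minus that in WT mice, 0 were called, and edgeR called 0% of all genes in either direction. An unadjusted p under 0.05 was found for 10 members (16.7%, against 13.8% of all genes), and DESeq2 called 1 higher and 0 lower (against 0.128% and 1.91% of all genes). The largest interaction among members named with a mean above 1 CPM in every group was that of Slc9a3, at 2.16. A call in 1 genotype and not in the other, which applied to 11 members, was in no case accompanied by a difference between the genotypes that edgeR called with all libraries in 1 fit. Scnn1b, 1 of the 11, was called between tumors in the other edgeR fits given above. Groups did not overlap for 6 members in tumors, Atp1b3, Slc4a1ap, Slc9a3r1, Slc12a2, Slc26a6 and Scnn1b, and for 6 in adjacent normal tissue (10% of members in each, against 16.4% and 2.99% of all genes). T cell, B cell and macrophage genes were lower in Il23r ΔTreg than in WT tumors (5 of 5, 3 of 5 and 3 of 6 called), as were 2 of 9 surface colonocyte genes, and their part in the member values was not tested.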

How the data were processed

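Whole-tissue RNA-seq was made from polyA-selected RNA of 8 mice, with 1 tumor and 1 adjacent normal library each. Groups and mouse numbers were taken from the sample titles. The authors trimmed reads with fastp (0.20.0), estimated counts per gene with Salmon (1.4.0) on a transcriptome named Gencode version 21, and deposited the counts as whole numbers. The identifiers do not settle the release, so no gene coordinates are given from the files. The deposited fold changes, p-values and scores of limma (3.50.3) and DESeq2 (1.34.0) and the normalized tables were not used, nor were 64 columns that the labels map to no mouse.

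Counts were filtered with filterByExpr (minimum count 10, which kept 17122 of 19574 genes), scaled by TMM and fitted with edgeR 4.0.16 in R 4.3.3 (quasi-likelihood test, 4 groups in 1 fit, no block), with Benjamini-Hochberg adjustment over all 17122 genes. Adjusted p-values are from this test unless another tool is named. They set differences against the spread between libraries of 1 experiment, and the fit did not use the pairing of libraries by mouse. Fold changes are given as log2 ± SE and levels as CPM after TMM, with SD over mice. Exon lengths are merged exons of GENCODE M21, matched by identifier. Promoters are from RefSeq (GRCm38.p6). The TATA, CCAAT and GC box motifs were chosen after the data were seen.

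The members, roles and gene lists were chosen with earlier results of these data known. Named members were the best-known colon transporters, up to 4 called members of each role per tumor contrast by p, the 2 most abundant of a role with no call, any called between genotypes, and any called in 1 genotype whose tumor effects differed in sign between genotypes. A few members are counted but not reported here by name. Both libraries of a mouse come from 1 animal, so mouse numbers pair the samples. The correlation across genes between the deviations of a mouse's tumor and adjacent normal library from their group means ran from -0.266 to 0.327. 1 Il23r ΔTreg mouse carries different cage labels on its libraries. Alternatives were DESeq2 1.42.0, limma 3.58.1 (log2 CPM with a prior count of 3), other scalings, filters and thresholds, only the groups compared, Rn18s left out, mouse as a block (in edgeR, or in limma voom between genotypes) and each mouse left out in turn. The main fit was also run on simulated counts with no mouse or cage effect, which cannot check the pairing or the cage labels.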

Additional observations from a re-analysis of the deposited data

Results flagged for a closer look

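In 84 groups of 5 Il23r ΔTreg libraries, 1 for each named member and tissue, 8 had a library far from the other 4 by Dixon's criterion, where chance gives about 1 in 20, or 4.2. That rate holds for independent groups of normally spread values. The members share the same libraries and some are near 0 CPM, so the 8 are not read as an excess. In adjacent normal tissue of mouse2903, Slc4a4 was 194.3 CPM (32.77 to 79.05 in the others), Slc4a7 was 123.0 CPM (76.54 to 85.42) and Slc9a4 was 2.88 CPM (0.1033 to 0.6896). In adjacent normal tissue of mouse2901, Slc26a9 was 0.4959 CPM (0 to 0.1014) and Slc20a2 was 26.8 CPM (31.64 to 33.58). In tumors, Slc20a1 was 57.47 CPM in mouse2901 (49.22 to 50.44), Slc26a10 was 0.2861 CPM in mouse2904 (0.01905 to 0.05081) and Slc26a7 was 0.2017 CPM in mouse3883 (0 to 0.05615).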

How the results depend on the processing

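No named member that was called reversed its direction under any alternative run. Of the named calls, 16 of 25 in WT and 22 of 26 in Il23r ΔTreg mice held under all of them, and the others that are reported here are given with their members. With each mouse left out in turn, the members called higher in WT tumors numbered 3 to 5 (3 without mouse2990) and those lower 15 to 20, and in Il23r ΔTreg mice 9 to 10 were higher and 16 to 21 lower. With no limit on the fold change, 6 were higher and 25 lower in WT, and 13 and 25 in Il23r ΔTreg mice. Between genotypes in tumors, leaving out mice gave 0 to 1 higher and 0 to 1 lower. DESeq2 gave 1 higher and 1 lower there, the fit with only the compared groups 1 higher, and DESeq2 1 higher for the interaction. The cause of these differences was not tested. With library sizes alone the median of all genes moved by 0.043 (tumor effect in WT mice) to 0.284 (genotype effect in tumors) on the log2 scale.

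With mouse as a replicate block, the pairing left 5 members higher and 19 lower in WT and 9 higher and 17 lower in Il23r ΔTreg mice. It ended the calls of Atp1b2 in WT and of Slc5a11 in Il23r ΔTreg mice and changed no other call within mice that is reported here. In limma voom with the same block, 1 member, Slc26a3, was lower in Il23r ΔTreg than in WT tumors. Depth limits the members below about 1 CPM, such as Slc26a7, Slc26a10, Slc5a7 and Slc5a11.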
